A study of Homo sapiens with 28 samples.

Results

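Cadmium chloride (CdCl2) was compared with water by sequencing of messenger RNA from HepG2, a widely used line of human liver cancer cells. The comparison was defined by the labels alone and set 4 CdCl2 libraries against 4 water libraries, out of the 28 libraries of the series. Both groups were deprived of serum for 24 h. The CdCl2 cells were then exposed to 0.5 µM CdCl2 for 24 h, and the water cells received the solvent for the same time. The other 20 libraries were exposed to 100 nM TCDD, 10 µM PFOS, 75 µM BPA or 0.1 µM TBTCl, or to DMSO, the control solvent of these 4 compounds. The series title concerns a network of imprinted genes in fatty liver disease. HepG2 is a single tumour-derived line, and CdCl2 was sequenced at a single dose and a single time. The labels speak of 4 independent experiments but do not say whether equal replicate numbers in different groups belong to one of them.

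Cadmium is a toxic metal that enters cells through carriers of zinc, manganese and calcium and binds to thiol groups. Metallothioneins are small cysteine-rich proteins that hold zinc, copper and cadmium ions, and the liver is a main site of their production. Their genes are switched on by the transcription factor MTF1, which senses free zinc and binds metal response elements upstream of its targets. Cadmium displaces zinc from proteins and so activates MTF1. It also damages protein folding, which activates heat shock genes through the factor HSF1.

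Promoter sequences are shown for the metallothionein genes MT1B and MT1H and for HSPA6, a stress-inducible member of the HSP70 family. Of the tested metallothionein genes with a RefSeq entry, MT1B and MT1H were those whose upstream bases did not overlap the gene in GENCODE 29. Each run is the 250 bases before the RefSeq start of the gene (GRCh38.p14), written 5′ to 3′. In the metallothionein promoters capitals mark the core of the metal response element, TGCACNC or TGCGCNC on either strand. In HSPA6 capitals mark GAANNTTC, the core of the heat shock element, which reads the same on both strands.
MT1B, chr16:56651636-56651885, plus strand: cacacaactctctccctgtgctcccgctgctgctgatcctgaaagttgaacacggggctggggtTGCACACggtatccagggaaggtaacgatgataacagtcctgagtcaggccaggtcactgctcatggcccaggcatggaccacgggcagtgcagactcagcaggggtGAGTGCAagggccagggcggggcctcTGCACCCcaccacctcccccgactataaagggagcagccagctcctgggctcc
MT1H, chr16:56669564-56669813, plus strand: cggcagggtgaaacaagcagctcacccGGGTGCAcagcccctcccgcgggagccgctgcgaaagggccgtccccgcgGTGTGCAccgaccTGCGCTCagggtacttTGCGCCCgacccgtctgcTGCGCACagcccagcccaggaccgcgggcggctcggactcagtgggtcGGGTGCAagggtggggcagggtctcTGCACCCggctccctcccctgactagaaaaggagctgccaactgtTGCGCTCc
HSPA6, chr1:161524290-161524539, plus strand: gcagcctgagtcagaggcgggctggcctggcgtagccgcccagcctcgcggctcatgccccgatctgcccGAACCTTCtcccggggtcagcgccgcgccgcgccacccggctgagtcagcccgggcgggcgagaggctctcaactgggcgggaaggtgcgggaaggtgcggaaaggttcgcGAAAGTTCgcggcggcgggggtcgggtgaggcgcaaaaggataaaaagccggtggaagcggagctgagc
The MT1B window held 3 metal response cores and the MT1H window 8. Of 35116 RefSeq promoter windows of this length, 24.8% held at least 1 such core, 1.58% at least 3 and 0.0513% at least 6. The MT2A window held 7 cores and the MT1X window 4, and these windows share bases with the genes as annotated in GENCODE 29. HSPA6 held 2 heat shock cores, as did 0.29% of the windows. The RefSeq table used had entries for 4 of the 9 metallothionein genes tested, and MT1A, MT1E, MT1F, MT1G and MT1M were not among them. A match describes the letters of the window and does not show binding.

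Total counts ran from 46.2 to 54.1 M in CdCl2 libraries and from 41.9 to 49.8 M in water libraries. Levels are given in CPM, counts scaled to a library of 1e6 reads after TMM adjustment of the library sizes, and a count of 3 equals 0.0519 to 0.064 CPM in CdCl2 libraries and 0.059 to 0.0728 CPM in water libraries. This floor covers counting error only. All 12 hepatocyte and HepG2 marker genes were measured, with a summed level of 49600 to 80000 CPM in CdCl2 and 43500 to 74000 CPM in water. Of 15 markers of leukocytes, endothelium and stroma, 5 had under 3 counts in each of the 8 libraries (PTPRC, CD3E, KDR, DCN and LUM). Of the same 15, 9 were high enough to be tested, and the list summed to 1900 to 2460 CPM in CdCl2 and 1910 to 3060 CPM in water. Of 5 biliary markers 3 were tested, with sums of 868 to 968 CPM in CdCl2 and 855 to 987 CPM in water. The libraries of a group spread widely. On the first principal component, which held 39.1% of the variance among these 8 libraries, CdCl2 libraries lay at 9.3, 26.5, 51.3 and -15.7 and water libraries at -32.9, 26.0, -17.2 and -47.2, in the order of replicate numbers 1 to 4.

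The comparison asked which genes a low dose of cadmium changes in liver-derived cells. A gene was called when its Benjamini-Hochberg adjusted p from edgeR was under 0.05. Of 18849 genes tested, 4 were called (0.0212%) in a fit of all 28 libraries, which shared an estimate of the spread. A fit to the 8 libraries alone called 0. All 4 were higher in CdCl2, and all 4 were metallothionein genes, namely MT1B, MT1M, MT1A and MT1F. No gene was called lower by edgeR, although 463 genes (2.46%) were lower at an unadjusted p under 0.05. In both directions 940 genes (4.99%) had such a p, 477 of them higher (2.53%). DESeq2, another test on counts, called 15 genes (0.0796%), 12 higher (0.0637%) and 3 lower (0.0159%). Libraries of CdCl2 and water that bear the same replicate number deviated from their group means together, with correlations of 0.540, 0.209, 0.123 and 0.511. However, CdCl2 replicate 3 correlated more with water replicate 2 (0.384) than with water replicate 3. With the replicate number as a block in the fit, 28 genes were called (0.149%), 17 higher (0.0902%) and 11 lower (0.0584%) in CdCl2, and the 4 metallothionein genes were among them. At an unadjusted p under 0.05 the block gave 1985 genes (10.5%), 938 higher (4.98%) and 1047 lower (5.55%). DESeq2 with the block called 114 genes (0.605%), 49 higher (0.26%) and 65 lower (0.345%). The 4 CdCl2 and 4 water libraries did not overlap for 461 genes (2.45%).

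**Figure D1:**
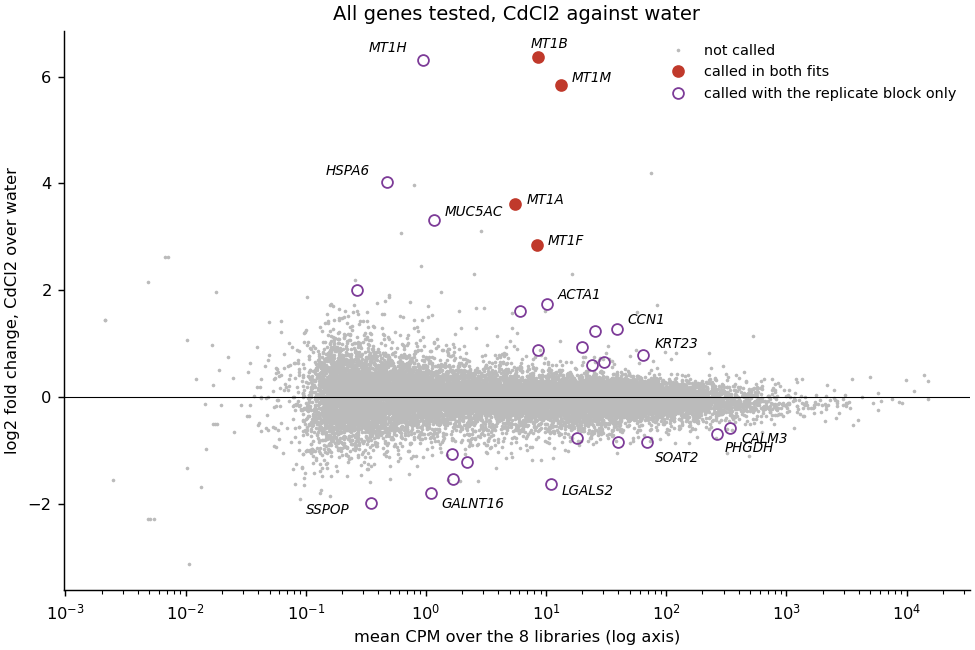
Log2 fold change of CdCl2 over water (vertical axis) against the mean level over the 8 libraries in CPM (horizontal log axis) for each of the 18849 genes tested. Filled red points are the 4 genes called in both fits, open purple circles the 24 called with the replicate block only, and grey points the remaining genes; metallothionein genes hold the highest positions.

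Metallothioneins carried the clearest difference between CdCl2 and water. All 9 tested genes of the family had a higher mean in CdCl2, with a median log2 fold change of 3.63, where the median over all tested genes was -0.001 and 49.9% of genes were higher. In 7 of the 9 genes every CdCl2 library lay above every water library, which was so for 1.28% of all tested genes. MT1B, MT1M and MT1H passed the filter on low counts only through their CdCl2 libraries. The filter thus favoured a higher and separate CdCl2 group for them, and their part in these counts and in the median is no independent support. The 9 genes lie together on chromosome 16 (GRCh38), from the start of MT2A at 56608199 to the end of MT1X at 56684196. Because the genes resemble one another closely, counting may have split reads between them or dropped reads, and the level of a single gene is uncertain.

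MT1B, a member of the MT1 group with very low expression in the water cells, had 22.8, 23.4, 13.3 and 8.22 CPM in CdCl2 replicates 1 to 4, against 0, 0.0393, 0.747 and 0 CPM in water replicates 1 to 4. The lowest CdCl2 library was 11.0-fold above the highest water library. Its log2 fold change was 6.37 ± 0.84 SE (edgeR adjusted p = 0.0016) and 6.6 ± 0.70 SE with the block (adjusted p = 0.000166). DESeq2 without a block gave an adjusted p of 0.157 for MT1B, and the edgeR value without water replicate 3 was 9.97.

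MT1M, a neighbouring gene of the same group, stood at 34.9, 37.6, 22.4 and 9.15 CPM in CdCl2, against 0, 0.059, 1.70 and 0.0243 CPM in water. Here too the groups were far apart, with the lowest CdCl2 library 5.40-fold above the highest water library. The log2 fold change was 5.84 ± 0.84 SE (adjusted p = 0.0016), and 9.71 without water replicate 3. The 4 water libraries held 88 counts of MT1M in all, 84 of them in replicate 3.

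MT1A, whose water level was less close to 0, had 12.6, 15.6, 10.1 and 2.71 CPM in CdCl2, against 0.907, 0.413, 1.13 and 0.873 CPM in water. The means were 10.3 ± 5.52 CPM in CdCl2 and 0.831 ± 0.301 CPM in water (SD, n = 4 each), a ratio of 12.4. MT1A had the smallest adjusted p of all genes without the block (log2 fold change 3.63 ± 0.49 SE, adjusted p = 0.00123). Leaving out any of the 8 libraries kept the call of MT1A, MT1B and MT1M. In a fit to these 8 libraries alone, without the other 20, none of the 4 calls held (adjusted p of 0.0925 for MT1A, 0.0925 for MT1B, 0.219 for MT1M and 0.374 for MT1F).

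MT1F had 24.0, 15.9, 11.0 and 7.97 CPM in CdCl2, against 1.71, 0.629, 4.44 and 1.41 CPM in water, again without overlap (log2 change 2.84 ± 0.50 SE, adjusted p = 0.0257). Its call ended when CdCl2 replicate 1 or 2 or water replicate 1, 2 or 4 was left out (adjusted p of 0.141, 0.0899, 0.196, 0.0969 and 0.262). Without water replicate 3 its log2 change was 3.56 (adjusted p = 0.00182).

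MT1H was called with the block only (log2 fold change 6.26 ± 0.71 SE, adjusted p = 0.0135; without the block 0.160). It had 1.94, 4.01, 1.37 and 0.213 CPM in CdCl2, against 0, 0, 0.0807 and 0 CPM in water. The water group held 4 counts of MT1H in all, so the size of its ratio rests on very few reads. Without the block it was also called when CdCl2 replicate 4 was left out (adjusted p = 0.0175).

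MT1G and MT2A had the highest mean CPM of the family in CdCl2. MT1G had 215, 198, 118 and 38.7 CPM in CdCl2, against 3.40, 0.511, 26.4 and 0.776 CPM in water. MT2A, the form most widely expressed in human tissues, had 192, 157, 95.4 and 65.5 CPM in CdCl2, against 29.8, 16.7, 56.5 and 51.4 CPM in water. For both genes the groups did not overlap and the libraries of each group differed severalfold among themselves. Neither was called (edgeR adjusted p of 0.442 for MT1G and 0.687 for MT2A, and 0.0943 and 0.166 with the block). The log2 change of MT1G was 4.19, and without water replicate 3 it was 6.5 and called (adjusted p = 0.0264). That of MT2A was 1.72. With DESeq2 and the block 6 of the 9 genes were called higher, MT1G and MT1E among them, where 0.26% of all genes were.

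MT1E had 32.1, 35.8, 33.9 and 8.05 CPM in CdCl2, against 4.56, 1.43, 9.50 and 6.62 CPM in water. Here CdCl2 replicate 4 lay below water replicate 3, and the groups overlapped (log2 fold change 2.31 ± 0.63 SE, adjusted p = 0.670). MT1X was close to 1 CPM or below in all libraries, with 0.813, 0.629, 0.597 and 0.407 CPM in CdCl2, against 0.206, 0.0197, 0.323 and 0.558 CPM in water (adjusted p = 0.898).

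Per kilobase of annotated exon, MT1G was the highest of the family in CdCl2 at 190 ± 108 CPM per kb, followed by MT2A at 98.1 ± 44.1 and MT1B at 44.5 ± 19.6 (SD, n = 4). MT1M, MT1E and MT1A stood next at 27.6, 26.1 and 25.9 CPM per kb, closer together than their spread, and MT1F, MT1H and MT1X were lower. In water MT2A was the highest at 29.7 ± 14.3 CPM per kb and MT1G the next at 10.4 ± 16.6, while MT1B was at 0.517 ± 0.966. The place of MT1G in water rested on replicate 3, at 26.4 CPM, where the other water libraries had 0.511 to 3.40 CPM. Exon lengths were taken from GENCODE 29.

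Of the other 8 family entries listed, MT1CP, an unprocessed pseudogene next to MT1B, had 9, 10, 9 and 1 counts in CdCl2 and 0 in each water library. Over the group this is at least 8.67-fold higher against a floor of 3 counts in water, and the gene was too low to be tested. MT1L, MT3, MT4, MT1DP, MT1IP and MT1HL1 had 0 counts in all 8 libraries, and MT1JP was not matched.

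**Figure D2:**
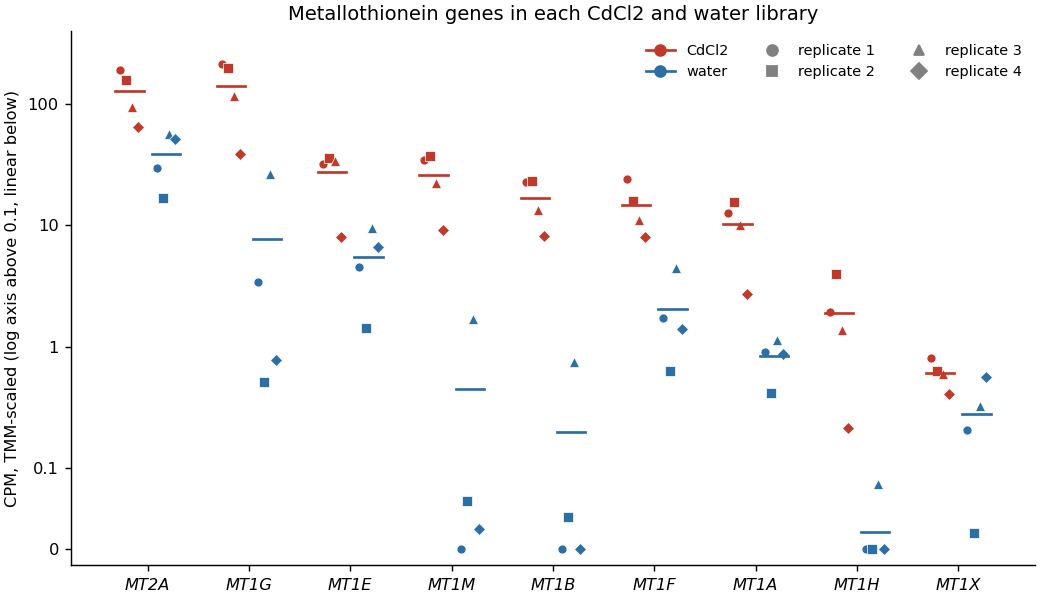
Level of the 9 tested metallothionein genes in each CdCl2 library (red, left) and water library (blue, right), in TMM-scaled CPM on an axis that is logarithmic above its lowest labelled step and linear below. Shapes give the replicate number and bars the group means; CdCl2 replicate 4 (diamond) is the lowest CdCl2 library for all 9 genes, and water replicate 3 (triangle) the highest water library for 8.

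The size of the metallothionein response differed between replicate numbers. Summed over the 9 genes, the level was 536, 488, 306 and 141 CPM in CdCl2 replicates 1 to 4, against 40.6, 19.9, 101 and 61.6 CPM in water replicates 1 to 4. The ratio of CdCl2 to water was 13.2, 24.6, 3.04 and 2.29 for the 4 replicate numbers. CdCl2 replicate 4 was the lowest CdCl2 library for 9 of 9 genes, and water replicate 3 was the highest water library for 8 of 9.

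In the other groups the family had another composition. The summed level was 132 to 381 CPM in TCDD, 25.5 to 44.2 CPM in PFOS, 195 to 494 CPM in BPA and 24.4 to 169 CPM in TBTCl, against 20.5 to 47.1 CPM in DMSO. The ranges of the BPA and CdCl2 sums overlapped, and the genes took different shares of them. MT2A was at 164 to 435 CPM in BPA and at 65.5 to 192 CPM in CdCl2, and MT1E at 18.4 to 46.5 CPM in BPA and at 8.05 to 35.8 CPM in CdCl2. MT1B was at 0 to 0.0331 CPM in BPA and at 8.22 to 23.4 CPM in CdCl2, MT1M at 0.0206 to 0.184 CPM in BPA and at 9.15 to 37.6 CPM in CdCl2, and MT1H had no counts in BPA. MT1G was at 3.18 to 7.15 CPM in BPA and at 38.7 to 215 CPM in CdCl2.

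Each change was set against its own solvent, and the difference of the changes was tested in the fit of all 28 libraries. MT1A differed between CdCl2 and BPA (log2 fold change 3.63 for CdCl2 and 1.5 for BPA, difference 2.12, adjusted p = 0.0281). For MT2A the BPA change of 3.35 was the larger, and the difference of -1.63 did not pass (adjusted p = 0.0970). MT1F did not pass either (difference 1.30, adjusted p = 0.203). For MT1B, MT1M and MT1H the DMSO libraries were at or near 0, so the change of the DMSO-dissolved compounds has no firm denominator and the difference was not called (adjusted p of 0.945, 0.652 and 1 against BPA). Against TCDD, PFOS and TBTCl no metallothionein difference passed, with adjusted p of 0.177 for MT1A against TCDD, 0.800 against PFOS and 0.146 against TBTCl. Against DMSO, edgeR called MT1A, MT1F, MT2A and MT1E higher in TCDD, by 1.95, 1.83, 2.85 and 2.59 on the log2 scale. Their adjusted p was 0.00692, 0.0194, 0.000258 and 0.00872. In BPA it called the same genes higher, by 1.5, 1.54, 3.35 and 3.18. Adjusted p there was 0.0159, 0.0206, 2.19e-05 and 0.000589. MT1B, MT1M, MT1G, MT1H and MT1X were called in neither.

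**Figure D3:**
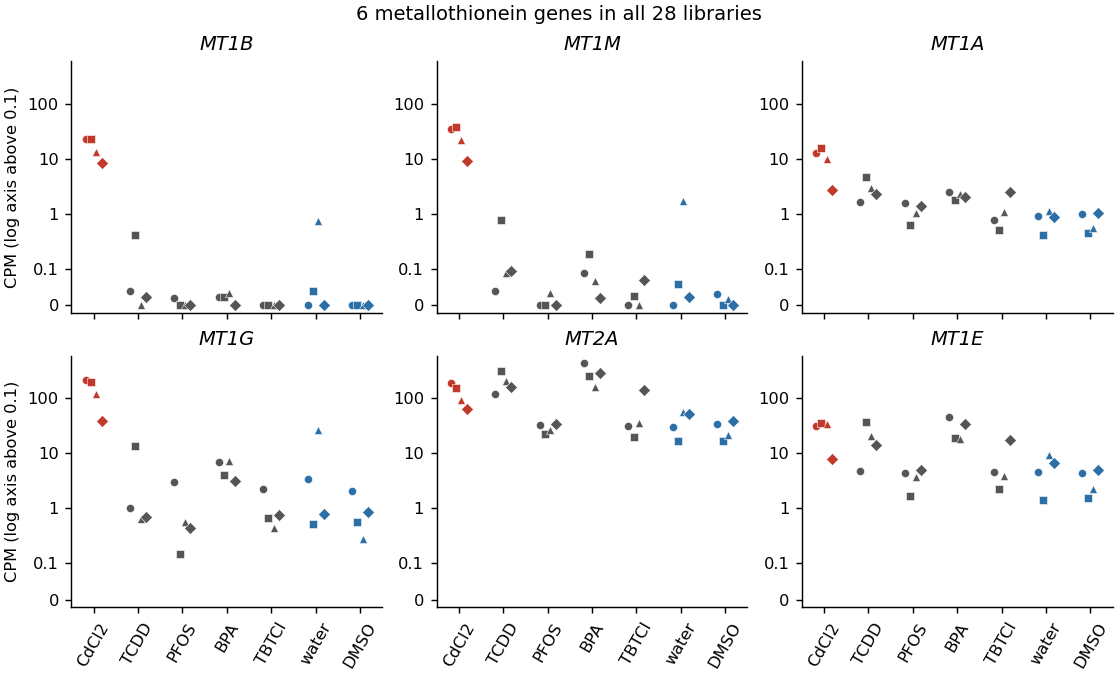
Level of 6 metallothionein genes in all 28 libraries, in TMM-scaled CPM on an axis that is logarithmic above its lowest labelled step, with 4 libraries per group and shapes for the replicate number. MT1B and MT1M are above 8 CPM in the CdCl2 libraries and below 2 CPM in every other library, whereas MT2A is highest in BPA at up to 435 CPM.

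Carriers that move zinc, cadmium and copper were near their water levels in the median, and some single genes were lower. Of 30 genes in this list, which includes MTF1, 25 were tested, 14 with a higher and 11 with a lower mean in CdCl2, and the median log2 fold change was 0.05. None was called by edgeR in either fit, and 3 had an unadjusted p under 0.05, all lower, where 2.46% of all tested genes had one in that direction. With the block 4 had an unadjusted p under 0.05, also all lower (5.55% of all genes), and DESeq2 with the block called 1 lower (0.345% of all genes).

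MTF1 itself had 19.7, 17.2, 17.5 and 15.4 CPM in CdCl2, against 17.3, 18.3, 10.7 and 15.5 CPM in water (log2 change 0.18 ± 0.19 SE). SLC30A1, the zinc exporter of the plasma membrane and a known MTF1 target, had 62.2, 56.2, 55.4 and 49.4 CPM in CdCl2, against 48.3, 67.2, 43.0 and 38.2 CPM in water (log2 change 0.18 ± 0.22 SE, adjusted p = 0.912). The groups overlapped for both.

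Importers were examined next. SLC39A4, a zinc importer, had 187, 230, 153 and 197 CPM in CdCl2, against 264, 264, 306 and 288 CPM in water. All 4 CdCl2 libraries lay below all 4 water libraries, but edgeR did not call the gene (log2 fold change -0.55 ± 0.14 SE, adjusted p = 0.552, and 0.119 with the block). It was the carrier gene that DESeq2 with the block called (adjusted p = 0.0184). SLC39A8, known to carry cadmium into cells, was near 1 CPM or below, at 0.501, 0.305, 0.171 and 0.582 CPM in CdCl2, against 0.866, 0.452, 0.706 and 0.995 CPM in water (log2 change -0.93 ± 0.32 SE, adjusted p = 0.898). SLC39A14, an abundant liver importer that also carries cadmium, averaged close to its water level (log2 fold change 0.29 ± 0.28 SE).

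The copper importer SLC31A1 had 178, 157, 176 and 211 CPM in CdCl2, against 204, 194, 222 and 208 CPM in water (log2 change -0.20 ± 0.09 SE, adjusted p = 0.898). The manganese and zinc exporter SLC30A10 had 20.0, 26.0, 17.8 and 38.2 CPM in CdCl2, against 24.4, 30.2, 41.0 and 41.4 CPM in water (log2 change -0.43 ± 0.22 SE). The remaining 18 transporters had log2 fold changes between -0.40 and 0.35, with overlapping groups.

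Heat shock genes did not move as a group. All 29 listed genes were tested, 15 with a higher and 14 with a lower mean in CdCl2, with a median log2 fold change of 0.03. HSPA6, the strictly inducible HSP70 gene whose promoter is shown above, had 0.432, 2.73, 0.192 and 0.213 CPM in CdCl2, against 0.0206, 0.059, 0.0807 and 0.0485 CPM in water. Every CdCl2 library exceeded every water library, and CdCl2 replicate 2 stood far above the rest. HSPA6 was called with the block (log2 fold change 3.66 ± 0.74 SE, adjusted p = 0.0394) and not without it (4.03 ± 0.92 SE, adjusted p = 0.231). DESeq2 without the block called it (adjusted p = 0.0215). Without CdCl2 replicate 2 the edgeR value without the block was 2.36. CRYAB, a small heat shock protein, had 0.899, 2.53, 0.555 and 0.582 CPM in CdCl2, against 0.412, 0.570, 0.484 and 0.388 CPM in water, again with replicate 2 the highest (log2 fold change 1.30 ± 0.40 SE, adjusted p = 0.771).

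Antioxidant genes under the factor NRF2 leaned upward without a call. Of 25 tested, 19 had a higher mean in CdCl2, the median log2 fold change was 0.10, and 2 were higher at an unadjusted p under 0.05 without the block (2.53% of all tested genes). With the block 8 were higher and 1 lower at that p, where 4.98% and 5.55% of all genes were. None was called by edgeR in either fit, and DESeq2 called 0 without and 1 higher with the block (0.26% of all genes). AKR1C1, an aldo-keto reductase, had 572, 797, 1230 and 298 CPM in CdCl2, against 275, 546, 331 and 164 CPM in water. The value in CdCl2 was higher in each of the 4 replicate numbers, while the groups overlapped (log2 fold change 1.14 ± 0.45 SE, adjusted p = 0.898). OSGIN1, a growth inhibitor induced by oxidative stress, had 40.7, 47.2, 38.1 and 21.2 CPM in CdCl2, against 26.8, 28.4, 15.7 and 18.7 CPM in water (adjusted p = 0.898).

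The 24 genes that edgeR called only with the block were spread over several roles, and 27 of the 28 genes were annotated as protein-coding. In 27 of the 28 the 4 replicate numbers gave the same direction, the exception being MUC5AC. Groups did not overlap in 10 of the 17 that rose and in 8 of the 11 that fell, where 1.28% and 1.17% of all tested genes were separate in these directions. The 28 genes were selected by a p from these same libraries. Their common direction and their separation are therefore in part results of that selection. Single libraries weighed on these calls. In fits with the block that left out 1 library, 6 to 41 genes were called, and 5 of the 28 genes were called in each of the 8 such fits, namely MT1A, MT1B, MT1M, GALNT16 and SSPOP. DESeq2 without the block called 13 of the 28, of which 10 were among the 24 that edgeR called only with the block, such as CCN1 (adjusted p = 0.0137) and LGALS2 (adjusted p = 0.0133). With the block it called 25 of the 28. It gave no adjusted p for HSPA6 and RFTN1 and did not call MT1H (adjusted p = 0.638).

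**Figure D4:**
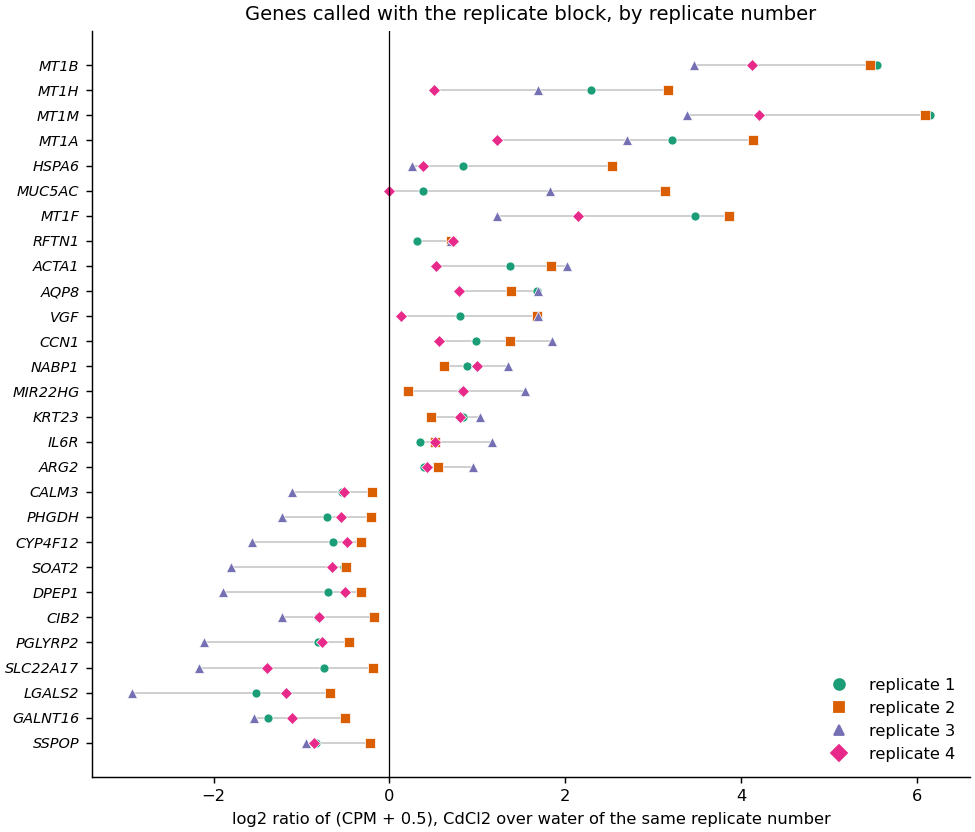
Log2 ratio of CdCl2 over water for each replicate number, after adding 0.5 CPM to both levels, for the 28 genes called with the replicate block, ordered by fitted change. Points are the 4 replicate numbers; 27 genes keep 1 side of the zero line in all 4, replicate 3 (triangle) gives the lowest ratio for the genes that fell, and MUC5AC is at zero in replicate 4.

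Among secreted and cell-surface proteins, CCN1, a matricellular signalling protein and a target of the coactivator YAP, rose. It had 44.9, 63.7, 76.4 and 34.2 CPM in CdCl2, against 22.5, 24.3, 20.8 and 22.9 CPM in water, so the groups were separate (block log2 fold change 1.20 ± 0.21 SE, adjusted p = 0.0135). VGF, the precursor of neuroendocrine peptides, had 31.8, 56.2, 41.8 and 15.0 CPM in CdCl2, against 18.0, 17.2, 12.6 and 13.6 CPM in water (1.22 ± 0.25 SE, adjusted p = 0.0394). MUC5AC, a gel-forming mucin, had 0.553, 6.16, 1.56 and 0.194 CPM in CdCl2, against 0.309, 0.256, 0.0807 and 0.194 CPM in water. Its rise came from CdCl2 replicates 2 and 3, and replicate 4 matched its water library (2.95 ± 0.60 SE, adjusted p = 0.0394). IL6R, the receptor subunit for interleukin 6, had 36.8, 39.4, 49.2 and 22.9 CPM in CdCl2, against 28.9, 27.4, 21.7 and 15.9 CPM in water (0.65 ± 0.13 SE, adjusted p = 0.0394).

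Structural and transport proteins rose as well. KRT23, a type I keratin, had 79.4, 74.4, 80.9 and 91.7 CPM in CdCl2, against 44.2, 53.5, 39.4 and 52.4 CPM in water, with little spread in either group (block log2 fold change 0.79 ± 0.15 SE, adjusted p = 0.0291). ACTA1, the alpha actin of skeletal muscle, had 10.8, 23.4, 23.9 and 4.93 CPM in CdCl2, against 3.88, 6.17, 5.53 and 3.25 CPM in water (1.63 ± 0.28 SE, adjusted p = 0.0135). The water channel gene AQP8 had 8.19, 14.4, 11.1 and 2.62 CPM in CdCl2, against 2.21, 5.21, 3.11 and 1.31 CPM in water (1.58 ± 0.33 SE, adjusted p = 0.0423). For ACTA1, AQP8, VGF and IL6R, CdCl2 replicate 4 was the lowest CdCl2 library and overlapped with water, and it was the lowest for 14 of the 17 genes that rose.

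Of the other 4 genes that rose with the block, ARG2, the mitochondrial arginase, had 27.3, 29, 36.0 and 23.2 CPM in CdCl2, against 20.7, 19.7, 18.4 and 17.1 CPM in water (block log2 fold change 0.60 ± 0.11 SE, adjusted p = 0.0263). NABP1, a protein that binds single-stranded DNA, averaged 26.3 ± 6.24 CPM in CdCl2 against 13.7 ± 5.43 CPM in water (SD, n = 4 each; adjusted p = 0.0135). MIR22HG, the noncoding host transcript of a microRNA, averaged 11.1 ± 3.56 CPM in CdCl2, against 5.97 ± 2.19 CPM in water (adjusted p = 0.0394). RFTN1, a lipid raft protein, was below 1 CPM throughout, with 0.430 ± 0.143 CPM in CdCl2, against 0.103 ± 0.0309 CPM in water (adjusted p = 0.0135).

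The genes that fell with the block included enzymes of lipid, amino acid and peptide metabolism. PHGDH, the first enzyme of serine synthesis from glucose, had 213, 198, 160 and 246 CPM in CdCl2, against 348, 229, 373 and 362 CPM in water (block log2 fold change -0.68 ± 0.13 SE, adjusted p = 0.0171). Its groups overlapped through water replicate 2. SOAT2, which esterifies cholesterol in liver and intestine, had 56.9, 49.9, 30.1 and 63.3 CPM in CdCl2, against 81.7, 70.6, 106 and 100 CPM in water, without overlap (-0.85 ± 0.17 SE, adjusted p = 0.0291). DPEP1, a membrane dipeptidase, had 39.6, 31.8, 15.7 and 28.2 CPM in CdCl2, against 64.8, 40.0, 59.7 and 40.4 CPM in water (-0.88 ± 0.16 SE, adjusted p = 0.0209). CYP4F12, a cytochrome P450 that hydroxylates fatty acids, had 15.5, 14.2, 8.73 and 15.9 CPM in CdCl2, against 24.5, 17.9, 26.8 and 22.4 CPM in water (-0.79 ± 0.15 SE, adjusted p = 0.0303).

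LGALS2, a galactose-binding lectin, had 7.07, 6.13, 2.35 and 5.97 CPM in CdCl2, against 21.2, 10.1, 21.2 and 14.1 CPM in water (block log2 fold change -1.73 ± 0.30 SE, adjusted p = 0.0135). Its fall was the largest among genes with at least 5 CPM in a group, an unadjusted p under 0.05 and no overlap. CALM3, a calmodulin gene, had 314, 280, 191 and 313 CPM in CdCl2, against 458, 321, 413 and 447 CPM in water (-0.59 ± 0.12 SE, adjusted p = 0.0414).

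The other 5 genes that fell were low, with no library above 4 CPM. GALNT16, which starts O-linked glycan chains, had 0.571, 0.377, 0.171 and 0.834 CPM in CdCl2, against 2.29, 0.747, 1.45 and 2.38 CPM in water (-1.87 ± 0.30 SE, adjusted p = 0.00714). SSPOP, named as a pseudogene of SCO-spondin but protein-coding in GENCODE 29, had 0.242, 0.162, 0.0427 and 0.0970 CPM in CdCl2, against 0.825, 0.275, 0.545 and 0.582 CPM in water (-2.03 ± 0.32 SE, adjusted p = 0.00705). The lipocalin receptor gene SLC22A17 averaged 0.861 ± 0.372 CPM in CdCl2, against 2.49 ± 0.972 CPM in water (SD, n = 4 each; adjusted p = 0.0160). PGLYRP2, a liver amidase that cuts bacterial peptidoglycan, averaged 1.31 ± 0.606 CPM in CdCl2, against 3.06 ± 0.510 CPM in water (adjusted p = 0.0394). CIB2, a calcium-binding protein, averaged 1.06 ± 0.253 CPM in CdCl2, against 2.22 ± 0.860 CPM in water (adjusted p = 0.0394). CdCl2 replicate 3 was the lowest CdCl2 library for 10 of the 11 genes that fell, and water replicate 2 the lowest water library for 10 of 11.

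The changes of these 28 genes were also set against those of the other compounds. The genes were selected by their change in CdCl2, which enters each difference. A share above that of all genes is therefore in part a result of the selection. The change in CdCl2 differed from that in TCDD for 6 of the 28, where 4.06% of all tested genes differed, and from that in BPA for 12, where 16.5% of all did. From PFOS it differed for 0 of the 28 by edgeR, where 0 genes in all passed and 1008 (5.35%) had an unadjusted p under 0.05. From TBTCl it differed for 1, where 4 genes in all passed (0.0212%). CYP4F12 was that gene. It fell by 0.75 on the log2 scale in CdCl2 and its change was 0.64 in TCDD, 0.68 in BPA and 0.74 in TBTCl, with adjusted p of the difference of 0.00193, 0.000786 and 0.0405.

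The log2 change of KRT23 was 0.78 in CdCl2, -0.49 in TCDD and -0.65 in BPA, with adjusted p of the difference of 0.00136 and 0.000244. That of PHGDH was -0.68 in CdCl2 and 0.63 in BPA (adjusted p = 0.000418). That of ACTA1 was 1.74 in CdCl2 and -0.76 in BPA (adjusted p = 0.00358). In other genes the value had the same sign and was larger in BPA. It was 0.66 for IL6R in CdCl2 and 2.68 in BPA (adjusted p = 8.7e-05), 0.61 for ARG2 in CdCl2 and 1.57 in BPA (adjusted p = 0.000684), and -1.21 for PGLYRP2 in CdCl2 and -2.98 in BPA (adjusted p = 0.0180). Some of the 28 were called by edgeR against DMSO with a change of similar size. MUC5AC was at 3.32 in CdCl2 and 3.73 in TCDD, and AQP8 at 1.61 in CdCl2, 2.22 in TCDD and 2.03 in BPA. DPEP1 was at -0.83 in CdCl2 and -0.94 in BPA, and SOAT2 at -0.84 in CdCl2 and -0.73 in BPA.

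Genes of cholesterol synthesis and uptake had lower levels in CdCl2 by a small margin. Of 25 tested, 24 had a lower mean, where 50.1% of all tested genes did, and the median log2 fold change was -0.31. None was called by edgeR in either fit, and DESeq2 called 0 without and 1 lower with the block (0.345% of all genes). An unadjusted p under 0.05 was found for 9 of them without the block and 12 with it, all lower, where 2.46% and 5.55% of all tested genes had one in that direction. The shift was alike in the 4 replicate numbers, with median log2 ratios of -0.26, -0.28, -0.31 and -0.33. LSS, which closes the sterol ring, had 287, 271, 232 and 348 CPM in CdCl2, against 370, 334, 370 and 467 CPM in water (log2 change -0.44 ± 0.16 SE, adjusted p = 0.898). HSD17B7, a sterol reductase, had 43.5, 41.6, 53.7 and 55.7 CPM in CdCl2, against 58.4, 54.5, 67.3 and 62.9 CPM in water (-0.32 ± 0.11 SE, adjusted p = 0.898). SOAT2, described above, acts on the product of this pathway and was not in the list.

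In fatty acid and triglyceride synthesis 16 of 21 genes tested had a lower mean, with a median log2 fold change of -0.17. The median log2 ratios by replicate number were -0.188, -0.161, 0.007 and -0.138. An unadjusted p under 0.05 was found for 3, all lower (2.46% of all genes), and edgeR called none in either fit, while DESeq2 with the block called 2 lower (0.345% of all genes). FADS2, the first desaturase of polyunsaturated fatty acids, had 182, 203, 120 and 333 CPM in CdCl2, against 378, 220, 416 and 715 CPM in water. It was lower in each replicate number, but levels overlapped (log2 fold change -1.05 ± 0.37 SE, adjusted p = 0.898, and 0.0722 with the block). DGAT1, which forms triglycerides, had 60.1, 52.4, 40.4 and 47.8 CPM in CdCl2, against 109, 62.1, 78.4 and 76.3 CPM in water, without overlap (-0.70 ± 0.27 SE, adjusted p = 0.898). APOA4, a lipid-binding plasma protein, had 7.00, 11.4, 7.19 and 12.6 CPM in CdCl2, against 13.7, 14.3, 21.2 and 26.9 CPM in water, also without overlap (-0.99 ± 0.35 SE, adjusted p = 0.898).

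In fatty acid oxidation, 19 genes were tested and the median log2 fold change was -0.09. CPT1A, which admits fatty acids to mitochondria, had 41.0, 51.4, 40.8 and 36.8 CPM in CdCl2, against 25.0, 37.0, 17.8 and 34.6 CPM in water (0.57 ± 0.17 SE, adjusted p = 0.711). HADH, an enzyme further along the same pathway, had 40.1, 37.4, 30.4 and 43.1 CPM in CdCl2, against 60.9, 44.3, 53.5 and 51.8 CPM in water, so the groups did not overlap (-0.48 ± 0.14 SE, adjusted p = 0.688). The pathway had members with higher and with lower levels, and edgeR called none in either fit, with 1 higher and 3 lower at an unadjusted p under 0.05 (2.53% and 2.46% of all genes). DESeq2 with the block called 1 higher and 1 lower (0.26% and 0.345% of all genes).

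The imprinted genes to which the series title refers showed small differences. A network around the transcription factor PLAGL1 was listed with 22 genes, and 14 of them were tested, 4 with a higher and 10 with a lower mean in CdCl2 (median log2 fold change -0.09). None was called by edgeR in either fit, 2 had an unadjusted p under 0.05, both lower (2.46% of all genes), and DESeq2 called 0 without and 1 lower with the block (0.345% of all genes). MEST, a hydrolase expressed from the paternal copy, had 21.3, 21.7, 21.0 and 22.7 CPM in CdCl2, against 32.2, 20.8, 28.3 and 37.3 CPM in water. The CdCl2 libraries lay close together, and water replicate 2 was below all of them while the other water libraries were above (log2 fold change -0.45 ± 0.18 SE, adjusted p = 0.898). GNAS, which encodes a G protein subunit, had 781, 845, 667 and 994 CPM in CdCl2, against 948, 827, 1100 and 1330 CPM in water (-0.36 ± 0.15 SE, adjusted p = 0.898).

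Cell cycle genes stood lower in 3 of the 4 replicate numbers. All 25 listed genes had a lower mean in CdCl2, with a median log2 fold change of -0.37. The median log2 ratios by replicate number were -0.63, 0.28, -0.73 and -0.36, so replicate 2 went the other way. None was called by edgeR in either fit or by DESeq2 in either fit, 0 had an unadjusted p under 0.05 without the block and 12 did with it, all lower, where 2.46% and 5.55% of all tested genes had one in that direction. AURKB, a mitotic kinase, had 32.0, 30.3, 28.5 and 41.5 CPM in CdCl2, against 55.2, 26.0, 48.0 and 70.2 CPM in water (log2 change -0.59 ± 0.32 SE, adjusted p = 0.898). CCNB2, a mitotic cyclin, had 37.4, 37.9, 35.8 and 43.2 CPM in CdCl2, against 54.6, 29.3, 52.3 and 62.9 CPM in water (-0.37 ± 0.22 SE, adjusted p = 0.898). In bulk RNA, fewer cells of a kind and less RNA per cell cannot be told apart. HepG2 is a single line, and of the genes listed as markers of other cell types 8 of 9 tested had a lower mean. Their summed levels were 1900 to 2460 CPM in CdCl2 and 1910 to 3060 CPM in water, and 1 member alone averaged 2220 CPM. At an unadjusted p under 0.05, 2 were lower without the block and 4 with it (2.46% and 5.55% of all genes). EdgeR called none in either fit, and DESeq2 with the block called 1 lower (0.345% of all genes). The part of these markers in the results was not tested.

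**Figure D5:**
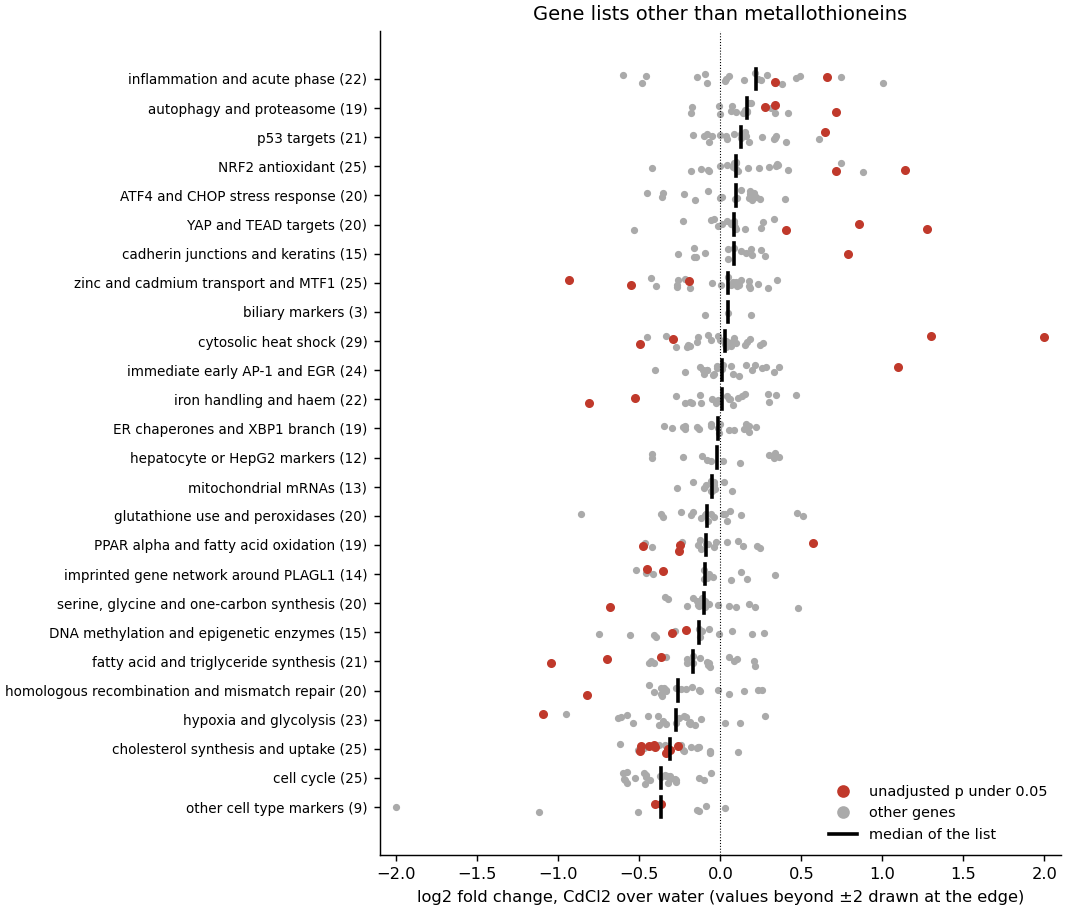
Log2 fold change of CdCl2 over water for each tested gene of 26 gene lists, metallothioneins left out, with the number tested in parentheses. Red points have an unadjusted p under 0.05, black bars are list medians, and points beyond the axis limits are drawn at its edge; medians run from 0.22 for inflammation and acute phase to -0.37 for cell cycle and other cell type markers.

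YAP target genes, to which CCN1 belongs, had a median log2 fold change of 0.09 over 20 tested, and 15 had a higher mean. TEAD1, the DNA-binding partner of YAP, had 59.0, 55.5, 58.3 and 58.2 CPM in CdCl2, against 43.1, 51.6, 32.0 and 48.0 CPM in water, without overlap (log2 change 0.40 ± 0.18 SE, adjusted p = 0.898). In inflammation and the acute phase, 16 of 22 tested genes had a higher mean, with a median of 0.22. IL6R was the 1 gene edgeR called with the block, where 0.0902% of all genes were called higher. With the block 2 were higher and 2 lower at an unadjusted p under 0.05 (4.98% and 5.55% of all genes). NFKBIA, the inhibitor of NF-kappaB, had 69.9, 85.0, 108 and 85.3 CPM in CdCl2, against 57.5, 80.3, 65.5 and 71.9 CPM in water (0.34 ± 0.15 SE, adjusted p = 0.898). Within the serine and one-carbon list, PHGDH was the 1 of 20 called with the block (0.0584% of all genes were called lower), and the median was -0.10. Genes under the stress factors ATF4 and CHOP had a median of 0.10 over 20 tested, and those of endoplasmic reticulum chaperones -0.02 over 19 (0.02 with library size alone as the scaling). DDIT4, of the ATF4 and CHOP list, was lower in each replicate number (log2 change -0.45 ± 0.28 SE, adjusted p = 0.898). In neither list had any gene an unadjusted p under 0.05 without the block. With the block 1 gene of the ATF4 and CHOP list and 2 of the chaperone list had one, all lower (5.55% of all genes). Neither edgeR nor DESeq2 called a gene of these lists in either fit.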

How the data were processed

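Poly(A) RNA of HepG2 cells was sequenced from directional libraries, per the labels' protocols. The authors deposited whole-number read counts per gene for 28 libraries in 7 groups of 4. The submitters' processing notes name fastp, STAR, HTSeq and DESeq2 with GRCh38. The annotation, the tool versions and any use of strand in counting were not given in the sources used here. A gene and an antisense neighbour may therefore share reads. The last of 63140 entries was left out because the table ends within it. Symbols were at hand for 62568 identifiers, and gene types, exon lengths and coordinates came from GENCODE 29.

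Genes were kept by filterByExpr (minimum count 10), which left 18849 with 99.96% of the counts. All 28 libraries entered 1 edgeR 4.0.16 quasi-likelihood fit (R 4.3.3, TMM scaling, 7 group means, 21 residual degrees of freedom), once without and once with the replicate number as a block. The SE is the size of the log2 fold change divided by the root of the F statistic. Differences of changes, (CdCl2 over water) minus (compound over DMSO), were tested in the same fit. CPM in the text are TMM-scaled. DESeq2 1.42.0 (Wald test) was an alternative, and with the block it gave no adjusted p for 2193 genes. The scripts were tested on simulated counts.

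Equal replicate numbers were taken to pair libraries because each of the 4 correlations of deviations exceeded 0.1. CdCl2 replicate 3 correlated more with water replicate 2 (0.384) than with its own number (0.123). Libraries of a group differed by more than counting error, so none was a copy of another. If the 4 experiments per group shared cells, the p-values measure only the spread between these samples.

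The genes and the 27 gene lists were chosen with earlier results of these data known. Named genes were those called in either fit, the 8 largest rises and 8 largest falls with no overlap, an unadjusted p under 0.05 and 5 CPM or more in either group, the 2 smallest p of each list, and all metallothionein and metal transport genes. Alternatives were 3 other scalings, 2 other filters, DESeq2, the block, the 8 libraries alone and each library left out. MT1JP was not matched.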

Additional observations from a re-analysis of the deposited data

Results flagged for a closer look

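A library was singled out where the gap to its nearest neighbour was above Dixon's critical share of the range for a group of 4, a limit that chance passes in about 1 of 20 such groups. Among the named genes 13 of 212 groups were singled out, 6 in CdCl2 and 7 in water. For metallothioneins, water replicate 3 was the high library for MT1B at 0.747 CPM (others 0 to 0.0393), MT1M at 1.70 CPM (others 0 to 0.059), MT1G at 26.4 CPM (others 0.511 to 3.40) and MT1H at 0.0807 CPM (others 0). The low library for MT1E was CdCl2 replicate 4 at 8.05 CPM, where the next was at 32.1 CPM.

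HSPA6 was high in CdCl2 replicate 2 at 2.73 CPM (next 0.432), and CIB2 in CdCl2 replicate 4 at 1.43 CPM (next 0.960). Among metal carriers, SLC30A7 was low in CdCl2 replicate 2 at 29.3 CPM (next 38.1), SLC39A6 was high in CdCl2 replicate 3 at 60.7 CPM (next 48.9), and SLC11A2 was high in CdCl2 replicate 4 at 76.6 CPM (next 55.3). In water, CPOX, an enzyme of haem synthesis, was low in replicate 2 at 38.2 CPM (next 62.2), and so was PECAM1, an endothelial marker, at 3.54 CPM (next 4.8). The hexokinase gene HK1 was high in water replicate 4 at 5.80 CPM (next 2.33).

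MT1CP, a pseudogene below the limit for testing, had 29 counts over the CdCl2 libraries and 0 over the water libraries.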

How the results depend on the processing

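Without the block, edgeR called 4 genes. It called 25 without the filter on low counts (20 up, 5 down), 28 with the replicate block, 0 in a fit to the 8 libraries alone (1033 of 17595 genes had an unadjusted p under 0.05) and 14 there with the block, and 3 to 10 with 1 library left out, the 10 without CdCl2 replicate 4. DESeq2 called 15. With the replicate block the count of 28 became 496 without the filter (194 up, 302 down), 114 with DESeq2 (49 up, 65 down), 14 with the 8 libraries alone, 4 with no replicate block, and 6 to 41 with 1 library left out. It was 8 without water replicate 3 and 6 without water replicate 1. Other scalings gave 4, and 28 to 29 with the block. The cause of these moves was not tested.

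Differences of changes moved most with the replicate block, from 765 to 1532 genes against TCDD, from 3113 to 4832 against BPA, from 0 to 1 against PFOS (also 1 without the filter), and from 4 to 87 against TBTCl (24 without the filter, 1 to 8 with 1 library left out).

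For the 106 named genes, 1687 alternative values were computed: 1603 kept direction and call, 58 gained and 10 lost a call, 16 were counted as moved in size and 0 reversed. Values counted as kept could still change in size, as MT1B did from 6.37 to 9.97 without water replicate 3. Of 405 list medians 385 moved by less than the spread. Without water replicate 4 the hypoxia and glycolysis median was 0.05. Library size alone shifted the median of all genes to 0.03. At these depths genes near 0 in water, such as MT1B, MT1H and MT1M, rest on few reads, and 3 counts are the floor.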

Other observations

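Further gene lists gave few single-gene differences. In hypoxia and glycolysis 20 of 23 tested genes had a lower mean in CdCl2, with a median log2 fold change of -0.28, but the median was 0.05 without water replicate 4, and replicate 2 alone had a median log2 ratio of 0.135. SLC2A1, the glucose transporter GLUT1, had 358, 265, 154 and 478 CPM in CdCl2, against 762, 267, 506 and 1140 CPM in water (log2 change -1.09 ± 0.44 SE, adjusted p = 0.898). It was lower in each replicate number, in replicate 2 by little. In homologous recombination and mismatch repair 16 of 20 had a lower mean (median -0.26, and 0.078 in replicate 2 alone), with RAD54L, a strand-exchange motor, at 15.9, 12.4, 8.13 and 19.8 CPM in CdCl2, against 30.7, 12.6, 22.6 and 33.4 CPM in water (adjusted p = 0.898). Among chromatin enzymes 12 of 15 had a lower mean (median -0.13), and the histone deacetylase gene HDAC1, at 121, 118, 111 and 126 CPM in CdCl2, against 148, 129, 136 and 139 CPM in water, did not overlap (adjusted p = 0.898). In iron handling, TFR2, the liver transferrin receptor, had 29.6, 46.7, 27.5 and 48.7 CPM in CdCl2, against 48.1, 56.9, 77.2 and 85.2 CPM in water (adjusted p = 0.770).

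On the other side, autophagy and proteasome genes had a higher mean in 16 of 19 (median 0.17, and -0.023 in replicate 1 alone). MAP1LC3B, the autophagosome marker LC3B, had 119, 125, 167 and 114 CPM in CdCl2, against 100, 111, 102 and 103 CPM in water, without overlap (adjusted p = 0.898). Targets of p53 had a higher mean in 16 of 21 (median 0.13, and -0.111 in replicate 2 alone). In immediate early genes, EGR2, a zinc finger factor, was low at 0.277, 0.287, 0.213 and 0.233 CPM in CdCl2, against 0.103, 0.118, 0.0605 and 0.194 CPM in water, and did not overlap (adjusted p = 0.898). EdgeR called none of these lists' genes in either fit, and DESeq2 with the block called 1 lower in each of hypoxia, recombination and iron handling (0.345% of all genes).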
